A study of Mus musculus with 15 samples.

Results

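Several mouse immune gene families lie in tandem clusters of closely related copies. Among them are the major histocompatibility complex (H2), the killer cell lectin-like receptors (Klr), the beta-defensins (Defb), the alpha interferons (Ifna) and the Ceacam adhesion molecules. They were examined here for DNA copy number in tumour and liver by array comparative genomic hybridisation (CGH). Members were all autosomal, non-control probes whose gene name begins with H2-, Klra to Klrk, Defa, Defb, Defcr, Ifna or Ceacam. This gave 95 probes of 71 genes among 40726 autosomal probes. The 95 comprise 21 H2 probes (17 genes), 27 Klr probes (13 genes), 30 beta-defensin probes (28 genes), 2 Ifna probes (2 genes), 4 Ifnar probes (2 genes) and 11 Ceacam probes (9 genes). Ifnar1 and Ifnar2 encode the chains of the alpha interferon receptor and entered through the start of their names. So did H2-Ke2 and H2-Ke6, other genes of the H2 region, which are counted among the 21 H2 probes. No member probe carries the name of a classical class I gene (H2-K1, H2-D1) or of an alpha-defensin.

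The study deleted the spindle assembly checkpoint gene Mad2l1 in mouse hepatocytes and asked which DNA copy number changes arise in the resulting hepatocellular carcinomas (HCC). In all, 15 two-colour arrays covered 8 tissues of 3 mice. Mouse 3151 (female, 16.4 months, Mad2 f/f p53 f/+) gave HCC 1, HCC 2 and liver 1. Mouse 3760 (male, 13.8 months, Mad2 f/f p53 f/f) gave HCC 3 and liver 2, and mouse 4033 (male, 13.9 months, Mad2 f/f p53 f/f) gave HCC 4, HCC 5 and liver 3. All 3 carried Albumin-Cre, which is driven by a hepatocyte promoter, and were of the mixed strain C57BL/6.129, so no tissue in the series is without the floxed alleles. The unaffected livers are the control tissues. Each tissue was hybridised against normal wild-type liver DNA of an animal of the opposite sex. The reference DNA carries the same mixed strain label, C57BL/6.129. Both dye orientations were run except for HCC 3, which has the forward array only. A level below is log2 of tissue over reference, averaged over the dye orientations, minus the median of the probe's chromosome in the same tissue, so gains and losses of whole chromosomes are removed. A tissue is a mixture of cells, so a small change in all cells and a large change in some of them cannot be told apart.

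Class II H2 genes encode the molecules that present peptides to CD4 T cells, and the T and M regions hold non-classical class I genes. Klr genes of the natural killer gene complex encode inhibitory and activating receptors of natural killer cells, among them the Ly49 receptors (Klra) that bind class I molecules. In both gene families the number and the sequence of the copies are known to differ between inbred mouse strains. Beta-defensins are antimicrobial peptides of epithelia, alpha interferons are antiviral cytokines, and Ceacam proteins are adhesion molecules, of which Ceacam1 is prominent in liver.

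Of the 71 names, 69 are current RefSeq symbols and 2 are older names (H2-Ke2 for Pfdn6, Klra22 for Klra1). The probes on which the results turn are given here, since a ratio at a single oligonucleotide depends on its sequence. They are the 4 probes that differed between mice, the other Klri2 probe and 3 other Klra22 probes. The sequences and positions are those of the scanner files, whose genome build and strand are not given in the sources used here, so exon or intron is not stated. All letters are in lower case, as no part of a probe was singled out.
H2-T10, chr17:36255895-36255941: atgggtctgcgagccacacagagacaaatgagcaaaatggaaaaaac
H2-T3, chr17:36326541-36326591: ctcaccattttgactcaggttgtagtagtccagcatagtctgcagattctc
Klri2, called, chr6:129690345-129690404: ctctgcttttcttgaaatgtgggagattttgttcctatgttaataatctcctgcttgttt
Klri2, other, chr6:129687793-129687852: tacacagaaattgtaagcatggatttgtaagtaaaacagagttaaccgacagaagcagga
Klra22, called, chr6:130146698-130146757: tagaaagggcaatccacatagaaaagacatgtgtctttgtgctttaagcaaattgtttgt
Klra22, other, chr6:130239036-130239095: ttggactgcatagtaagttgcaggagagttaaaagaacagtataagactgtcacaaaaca
Klra22, other, chr6:130261207-130261266: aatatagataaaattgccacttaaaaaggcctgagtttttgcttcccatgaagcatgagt
Klra22, other, chr6:130328573-130328632: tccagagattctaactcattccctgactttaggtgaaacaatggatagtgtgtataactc
The member probes were 45 to 60 bases long with a median GC content of 36.7%. Of the 95, 13 shared a stretch of at least 16 bases with another autosomal probe of the array, in either strand.

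All 95 probes gave a value in all 8 tissues, and 92 were well above background in both channels on all 15 arrays. The median level of the X chromosome was positive in the 3 tissues of the female mouse (0.32 to 0.94) and negative in the 5 tissues of the male mice (-1.35 to -0.67), in keeping with a reference of the opposite sex. The level of the single Mad2l1 probe was -1.53 and -1.04 in HCC 1 and HCC 2 and between 0.04 and 0.91 in the other tissues. The single Trp53 probe was lowest in HCC 5 (-2.13) and HCC 4 (-1.825), with liver 3 at -0.72. It was at -0.20 in HCC 3 and -0.87 in liver 2. In mouse 3151 it was at -0.75 in HCC 1, -0.92 in HCC 2 and -0.07 in liver 1. Where either probe lies relative to the floxed exons was not determined, so these probes do not check the deletion in the tissues labelled HCC 3, HCC 4 and HCC 5. Arrays were scanned on 2 days, the 3760 tissues, HCC 5 and liver 3 on the first and the 3151 tissues and HCC 4 on the second.

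The members with the most pronounced pattern differed between mice, with no overlap between the tissues of different mice. They lay in the T region of H2 and in the Klri2 to Klra22 interval of the Klr complex. The limma F-test over the 3 mice passed an adjusted p of 0.05 for 4 of the 95 member probes (4.21%) and for 1.50% of all autosomal probes. The 4 were single probes of H2-T10, H2-T3, Klri2 and Klra22. The spread behind these tests is that between tissues of 1 animal, so each p speaks of these 3 animals. Mouse 3151 also differs from the other 2 in sex, Trp53 genotype and age, and these cannot be told apart from the animal. Its reference was also of the other sex, hence another reference DNA than that of the male mice. A difference between the references cannot be told apart from a difference between the mice. Whether a difference lies in the number of copies or in the sequence under the probe was not tested.

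**Figure D1:**
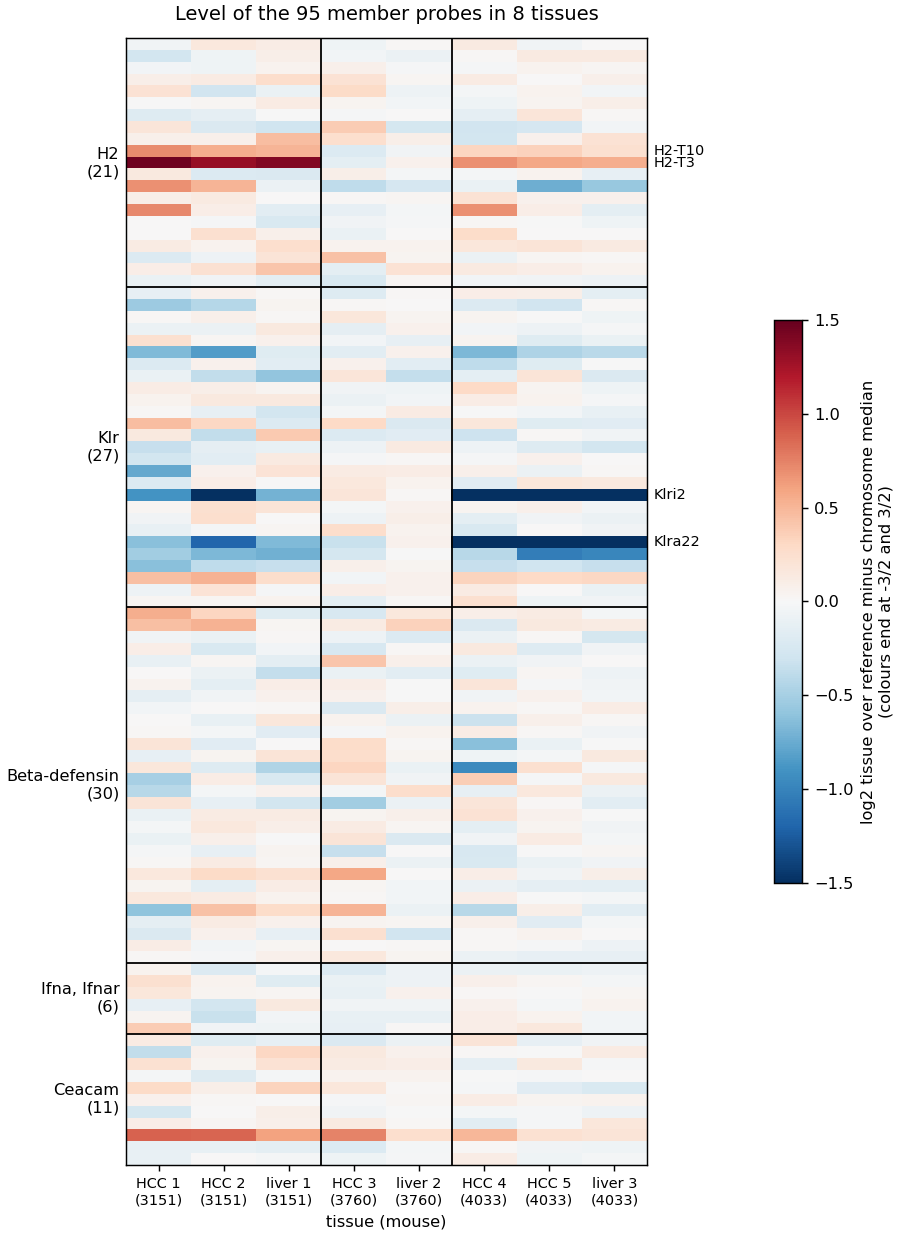
Level of each member probe (rows, grouped by family and ordered by chromosome and position, number of probes in brackets) in each tissue (columns, grouped by mouse), as log2 of tissue over reference minus the chromosome median. The 4 probes named on the right were called between mice; their colours change at the borders between mice, and most other rows are pale in all 8 tissues.

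H2-T3 encodes the thymus leukaemia antigen, a non-classical class I molecule that binds CD8. Its level was 1.46 in HCC 1, 1.31 in HCC 2 and 1.39 in liver 1 of mouse 3151. It was 0.69 in HCC 4, 0.58 in HCC 5 and 0.54 in liver 3 of mouse 4033, and -0.15 in HCC 3 and 0.06 in liver 2 of mouse 3760. The 3 mice did not overlap, and each tumour lay close to its own liver. The adjusted p of the limma F-test was 0.000118. Mouse 3151 exceeded mouse 3760 by 1.43 ± 0.11 (SE, adjusted p = 7.8e-05, limma) and mouse 4033 by 0.78 ± 0.10 (adjusted p = 0.0017, limma). Mouse 3760 minus mouse 4033 was -0.65 ± 0.11 (adjusted p = 0.038, limma).

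H2-T10, annotated by RefSeq as a transcribed pseudogene, lies 70.7 kb before H2-T3. Its level was 0.71, 0.54 and 0.51 in HCC 1, HCC 2 and liver 1. It was 0.32, 0.35 and 0.24 in HCC 4, HCC 5 and liver 3, and -0.21 and -0.05 in HCC 3 and liver 2. The order of the mice was that of H2-T3, again without overlap. The F-test gave an adjusted p of 0.016 in limma. Mouse 3151 exceeded mouse 3760 by 0.72 ± 0.11 (SE, adjusted p = 0.00822, limma), whereas the other contrasts did not pass (0.28 ± 0.10 for 3151 minus 4033, -0.43 ± 0.11 for 3760 minus 4033). The H2-T10 call was lost on forward arrays alone (limma adjusted p = 0.086) and with scan day in the limma fit (0.356). The differences between mice 3151 and 3760 were 0.68 and 0.69 there. Without HCC 3 and on dye-swap arrays alone they were 0.64 and 0.65, with 1 tissue of mouse 3760 left.

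Within 150 kb of H2-T3 lie 11 other probes, of which 4 were called between mice, 3 of them no members. These 3 were chosen after their values were seen. The nearest, 0.528 kb after H2-T3, is named AK153910 and described in the file as T region locus 18. Its level was 1.42, 1.34 and 1.14 in the 3151 tissues, 0.22, 0.42 and 0.63 in HCC 4, HCC 5 and liver 3, and 0.48 and 0.24 in the 3760 tissues. The probe J00393, 20.2 kb after H2-T10 and described in the file as an H2-Kd mRNA, went the other way. It stood at -3.04, -3.43 and -3.85 in HCC 1, HCC 2 and liver 1, at -2.42, -2.96 and -2.87 in HCC 4, HCC 5 and liver 3, and at -0.04 and -0.17 in HCC 3 and liver 2. It was well above background on 2 of 6 arrays of mouse 3151, 5 of 6 of mouse 4033 and 3 of 3 of mouse 3760, so its low levels rest on dim spots. The third, an unnamed probe 103.9 kb after H2-T3, stood between -2.53 and -1.88 in mice 3151 and 4033 and at -0.01 and 0.07 in mouse 3760. High and low probes thus lay close together along this stretch. AK153910 set mouse 3151 apart, with like means in mouse 4033 (0.43) and mouse 3760 (0.36). Further along, a probe between H2-M3 and H2-M2 that is no member was also called (adjusted p of the limma F-test = 0.00075). Its mean was 1.03 in mouse 3151, 0.41 in mouse 4033 and -0.01 in mouse 3760, and it too was chosen after its values were seen.

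Klri2 encodes a lectin-like receptor of natural killer cells. At its probe at chr6:129690345-129690404 the level was -0.89 in HCC 1, -1.57 in HCC 2 and -0.70 in liver 1. It was -2.18 in HCC 4, -2.05 in HCC 5 and -2.42 in liver 3, and 0.19 in HCC 3 and 0.01 in liver 2. The mice did not overlap. In mouse 4033 the tissue channel was not well above background on any of the 6 arrays, so its level there rests on dim spots. Its processed signals were 43.4 to 159.2, against 294.4 to 435.1 in the reference channel. A floor was also set, taking on each array the higher of the probe's own signal and the lowest signal well above background. With this floor the ratio was 4.97-fold lower in mouse 4033 than in mouse 3760 and 2.23-fold lower than in mouse 3151. The floor hardly moved the mean of mouse 4033 (-2.22 with and without it), so these folds are no lower limit. They hold for the processed signals only. The adjusted p of the limma F-test, on the levels without the floor, was 0.000677. Mouse 3151 was lower than mouse 3760 by a log2 difference of -1.16 ± 0.22 (SE, adjusted p = 0.0365, limma). In mouse 3151 the tissue signals, 271.9 to 460.6, overlapped those of mouse 3760, 287.0 to 378.2, and the reference signals were the higher ones, at 524.8 to 777.1 against 254.9 to 348.4. The part of the reference in this difference was not tested. With normexp background correction the difference of mouse 3760 minus mouse 4033 was 0.20 and the limma call was lost (adjusted p = 0.84). On dye-swap arrays alone, where mouse 3760 has 1 tissue, the difference was 1.65.

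The other Klri2 probe, 2.55 kb away, stood between -0.20 and 0.17 in all 8 tissues and was not called (adjusted p of the limma F-test = 0.916). The nearest probe before the pair that is no member, named AF054819, was low in mice 3151 and 4033 (-1.25 to -0.39) and at -0.03 and -0.17 in mouse 3760, without passing the limma F-test (adjusted p = 0.541). None of the 13 other probes within 150 kb of the called Klri2 probe was called.

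Klra22 is the file's name for 5 probes that span 307.9 kb. RefSeq lists the name under Klra1 and has several other Klra genes between Klra17 and Klra2, so the assignment of these probes to a single Ly49 gene is uncertain. At chr6:130146698-130146757 the level was -0.62, -1.18 and -0.66 in HCC 1, HCC 2 and liver 1. It was -1.61, -1.55 and -1.70 in HCC 4, HCC 5 and liver 3, and -0.33 and 0.07 in HCC 3 and liver 2. Again mouse 4033 was lowest and mouse 3760 highest, without overlap. The adjusted p of the limma F-test was 0.00304. Mouse 3760 exceeded mouse 4033 by 1.49 ± 0.18 (SE, adjusted p = 0.00424, limma), and mouse 3151 exceeded mouse 4033 by 0.80 ± 0.16 (adjusted p = 0.0376, limma). Mouse 3151 minus mouse 3760 was -0.69 ± 0.18 and did not pass (adjusted p = 0.166, limma). With normexp the difference of mice 3760 and 4033 was 0.93 and the call was lost (adjusted p = 0.11, limma).

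The 4 other Klra22 probes were not called in this limma fit. In other limma fits the probe at 130239036 was called on forward arrays, with scan day as a term and without HCC 4, and the probe at 130261207 with slide as a block. The first (chr6:130020705-130020763) stood between -0.23 and 0.26 in all tissues. The probe at chr6:130239036-130239095 was at -0.52, -0.67 and -0.73 in the 3151 tissues, -0.42, -1.04 and -0.98 in HCC 4, HCC 5 and liver 3, and -0.26 and 0.00 in the 3760 tissues (adjusted p of the limma F-test = 0.322). The 2 dye orientations of HCC 4 disagreed there, at -1.31 and 0.48. The probe at chr6:130261207-130261266 stood at -0.63, -0.38 and -0.35 in the 3151 tissues, -0.34, -0.30 and -0.35 in the 4033 tissues, and 0.07 and 0.04 in the 3760 tissues (adjusted p = 0.129, limma F-test). The last (chr6:130328573-130328632) was positive in the same 2 mice, at 0.46, 0.53 and 0.27 in the 3151 tissues and 0.33, 0.30 and 0.31 in the 4033 tissues, and at -0.04 and 0.07 in the 3760 tissues (adjusted p = 0.345, limma F-test). Klra17 and Klra2, on either side of this stretch, lay between -0.15 and 0.25 at all 4 of their probes.

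**Figure D2:**
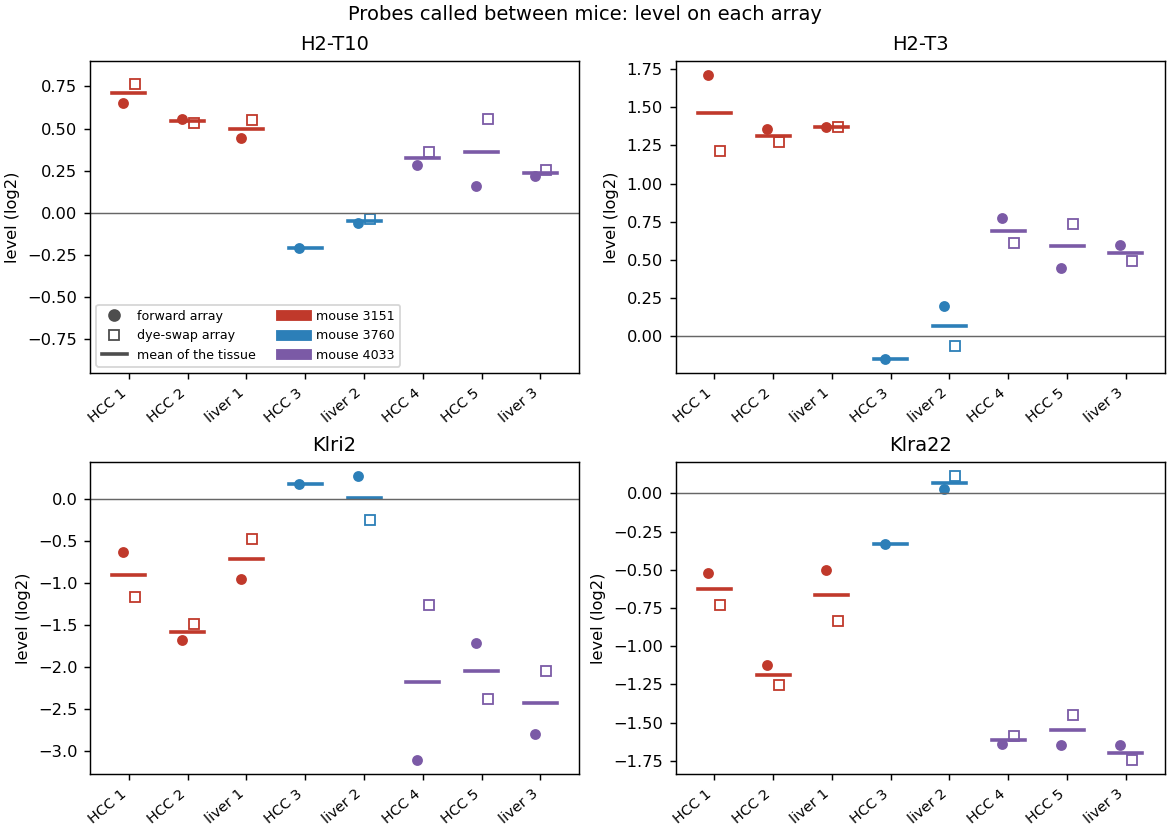
Level (log2 of tissue over reference minus the chromosome median) of the 4 probes called between mice, on each forward array (filled circle) and dye-swap array (open square), with the mean of the tissue as a line; colours are mice. The means of a mouse's tumours and liver do not overlap those of another mouse, and mouse 3760 is nearest to 0 in each panel.

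**Figure D3:**
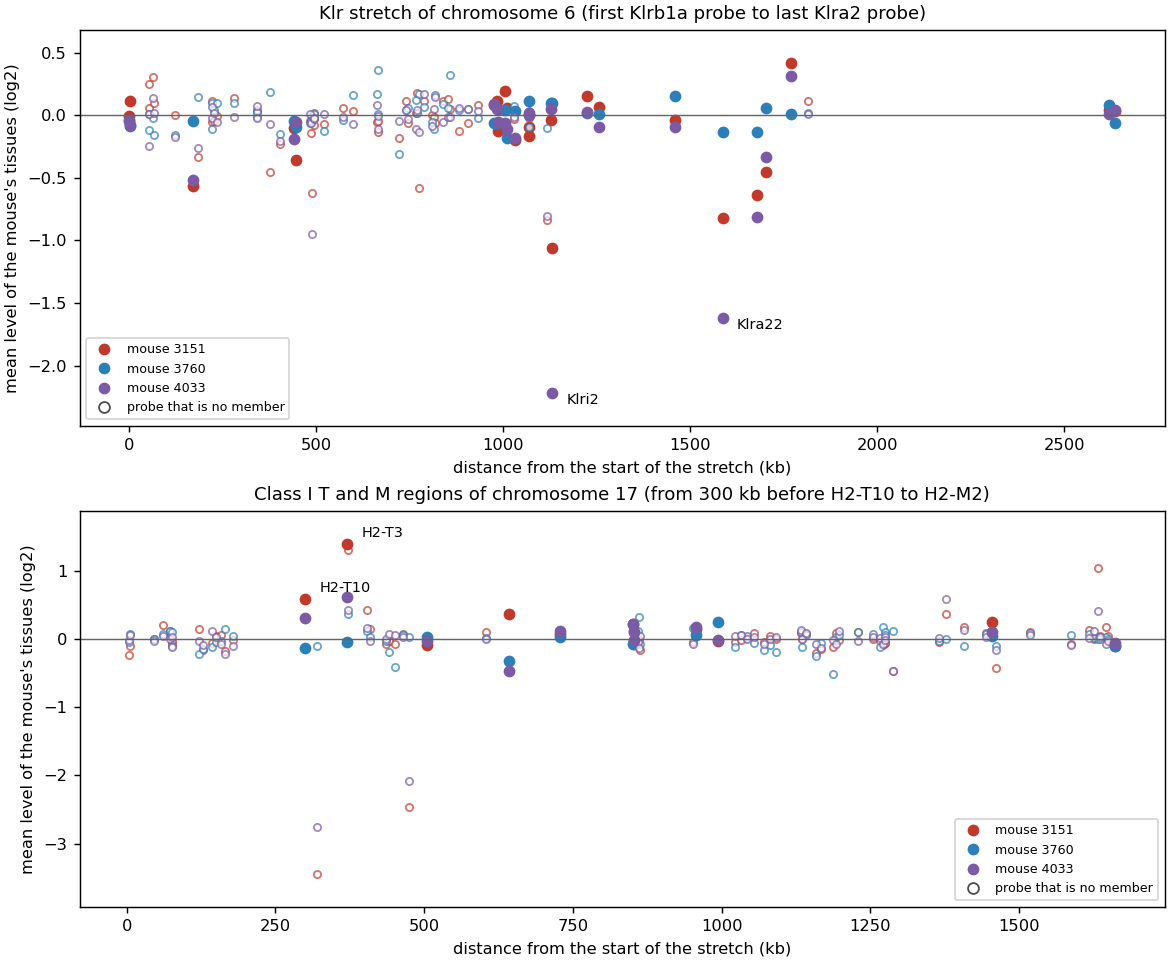
Mean level over the tissues of each mouse (log2, vertical axis) at every probe of the Klr stretch of chromosome 6 (top) and of the T and M class I regions of chromosome 17 (bottom), against the distance in kb from the start of the stretch. Filled circles are members and open circles other probes; most lie near 0, and the called members are named.

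The differences between mice were also taken within scan day and slide. On the first scan day, mouse 3760 minus mouse 4033 was 1.49 at Klra22, -0.42 at H2-T10 and -0.61 at H2-T3. On the second, mouse 3151 minus HCC 4 was 0.79, 0.26 and 0.70 at the same probes. On the slide that holds both liver 1 and HCC 4, liver 1 minus HCC 4 was 0.95, 0.19 and 0.70. No such value is given for Klri2, which was not well above background in mouse 4033. Mice 3151 and 3760 share no scan day and no slide, and only mouse 4033 links the days. With scan day as a term in the limma fit, mouse 3151 exceeded mouse 3760 by 1.30 at H2-T3 (adjusted p of the F-test = 0.024) and by 0.69 at H2-T10 (0.356). Mouse 3760 exceeded mouse 4033 by 1.49 at Klra22 in that limma fit (adjusted p of the F-test = 0.0118).

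Pairwise, 2 member probes were higher in mouse 3151 than in mouse 3760 (background 0.528% of autosomal probes) and 1 was lower (0.484%). Against mouse 4033, 3 were higher in mouse 3151 (0.786%) and 0 lower (0.548%). Mouse 3760 was higher than mouse 4033 at 2 (0.206%) and lower at 1 (0.145%). These are contrasts of the same limma fit and share tissues.

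A level past 0.3 in either direction in every tissue of a mouse was counted next. In mouse 3151, 3 member probes exceeded 0.3 in all 3 tissues (0.641% of all autosomal probes did) and 4 were under -0.3 (0.778%). In mouse 4033, 2 were over (0.449%) and 5 under (0.906%). In mouse 3760, 0 were over in both tissues (0.491%) and 0 under (0.678%). The genes were H2-T10, H2-T3 and Ceacam2 over in mouse 3151, H2-T3 and the last Klra22 probe over in mouse 4033, the called Klri2 probe and 3 Klra22 probes under in both mice, and Klrb1c under in mouse 4033. All of the probes under the threshold are thus in the Klr complex.

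Klrb1c encodes NK1.1, an activating receptor used to identify natural killer cells in C57BL/6 mice. Its probe was at -0.66, -0.83 and -0.19 in HCC 1, HCC 2 and liver 1, at -0.67, -0.47 and -0.41 in HCC 4, HCC 5 and liver 3, and at -0.16 and 0.06 in HCC 3 and liver 2. Mouse 3760 was highest, and the other 2 overlapped (adjusted p of the limma F-test = 0.642). Ceacam2, a relative of Ceacam1, was above 0 in all 8 tissues, at 0.88, 0.87 and 0.60 in the 3151 tissues, 0.74 and 0.25 in HCC 3 and liver 2, and 0.49, 0.23 and 0.19 in HCC 4, HCC 5 and liver 3 (adjusted p = 0.536, limma F-test). Its dye orientations differed in HCC 4, at -0.02 on the forward and 1.02 on the dye-swap array, and in HCC 5, at 0.56 and -0.10.

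H2-M10.4, a class I gene of the M region, was at 0.69 and 0.51 in HCC 1 and HCC 2, and at -0.09 in liver 1. It was at -0.38 and -0.26 in HCC 3 and liver 2, and at -0.10, -0.73 and -0.57 in HCC 4, HCC 5 and liver 3 (adjusted p = 0.207, limma F-test). Here tumour and liver of a mouse differed by over 0.3 in HCC 1, HCC 2 and HCC 4.

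Of the 95 probes, 56 (58.9%) stayed within 0.3 of the chromosome median in all 8 tissues, against 53.8% of all autosomal probes. By tissue, however, the share of members past 0.3 in either direction was above that of the other probes in 6 of 8 tissues. It was 23.2% against 12.7% in HCC 1, 18.9% against 14.8% in HCC 2, 17.9% against 13.6% in HCC 4 and 9.47% against 5.07% in HCC 5. In livers 1 and 3 it was 15.8% against 11.3% and 8.42% against 2.73%. In the mouse 3760 tissues it was below, at 11.6% against 15.6% in HCC 3 and 2.11% against 2.62% in liver 2. The 7 class II probes (H2-Oa, H2-Ab1, H2-Eb1, H2-Eb2, H2-Ea) ranged from -0.30 to 0.47, and 96.4% of their values were within 0.3. H2-Ab1, the beta chain of the class II molecule I-A, ranged from 0.01 in HCC 5 to 0.26 in liver 1. The 3 probes of H2-Eb1, the beta chain of I-E, ranged from -0.28 to 0.28. H2-Ea, a pseudogene in RefSeq, ranged from -0.28 in HCC 4 to 0.47 in liver 1. Of the M region, H2-M3, which presents N-formylated peptides, ranged from -0.14 in HCC 3 to 0.41 in liver 1.

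Of the Klr genes outside the Klri2 to Klra22 interval, the probe of Klre1 and both probes of Klrd1, the CD94 chain that pairs with Klrc receptors, stayed between -0.27 and 0.30. Klrc1, which encodes the NKG2A receptor chain, ranged from -0.28 to 0.14 at one probe, and from -0.77 in HCC 1 to 0.20 in liver 1 at the other. The beta-defensins ranged from -0.96 (Defb12 in HCC 4) to 0.58 (Defb50 in HCC 3), with 90.8% of values within 0.3 and 17 of 30 probes within it in all tissues. The constitutively made Defb1 ranged from -0.34 to 0.12 over its 2 probes, and Defb2 from -0.15 to 0.11. Defb4 ranged from -0.52 in HCC 3 to 0.19 in HCC 1 and HCC 4. Both Ifna probes stayed between -0.21 and 0.25, and the 4 Ifnar probes between -0.33 and 0.39. Among Ceacam genes other than Ceacam2, Ceacam1 ranged from -0.15 to 0.17 and Ceacam10 from -0.26 to 0.08. Ceacam14 stood at -0.37 in HCC 1 and 0.31 in liver 1, and between -0.01 and 0.15 in the other tissues.

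The contrast of HCC against unaffected liver called 0 of the 95 member probes, as it called 0% of the 40726 autosomal probes (limma, adjusted p under 0.05). This fit treated the 8 tissues as independent, though they come from 3 mice and each HCC has a liver of its own mouse. Its SEs and p-values, here and below, ignore that pairing. At an unadjusted p under 0.05 limma found 4 members (4.21%) and 625 probes in all (1.53%). The median difference was -0.00 for the members and for all probes. The 4 members were single probes of Klrk1, Klrg1, Klrb1c and Klrb1f, all with an adjusted p of 1.00, and the other Klrb1f probe differed by -0.02.

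Klrk1, the activating receptor NKG2D, had a probe at 0.47, 0.31, 0.30, 0.17 and -0.18 in HCC 1 to HCC 5 and at -0.20, -0.22 and -0.17 in livers 1 to 3. Only HCC 5 overlapped the livers. The difference was 0.41 ± 0.13 (SE), the largest in absolute value among the Klr probes. The other Klrk1 probe differed by -0.20 ± 0.15. Klrg1, an inhibitory receptor of mature natural killer and T cells, had a probe at -0.54, -0.43, 0.02, -0.21 and -0.29 in HCC 1 to HCC 5 and at 0.05, 0.01 and 0.02 in the livers. The difference was -0.31 ± 0.12 (SE), and the 2 other Klrg1 probes differed by 0.02 and 0.06. Every HCC was above every liver at 0 member probes (0.850% of all probes) and below at 2 (1.22%), a Klrb1a and a Defb1 probe, with differences of -0.15 and -0.18.

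Averaged over the probes of a cluster, HCC and liver differed by less than the SD between HCC in all 9 clusters of at least 3 probes. The 21 H2 probes averaged 0.09 in HCC (SD 0.06 over 5 tumours) and 0.05 in liver (SD 0.07 over 3 livers). The 24 Klr probes from Klrb1a to Klra2 averaged -0.16 in HCC (SD 0.09) and -0.13 in liver (SD 0.14). By mouse they averaged -0.14 in 3151, -0.01 in 3760 and -0.24 in 4033. The 2 beta-defensin clusters of chromosome 8 differed between HCC and liver by 0.01 and 0.02, the chromosome 2 cluster by 0.02, Ifnar by -0.00, and the Ceacam clusters by -0.03 and 0.05. The 3 Klrg1 probes differed by -0.08. No p is given for these means, which are scores over chosen members.

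**Figure D4:**
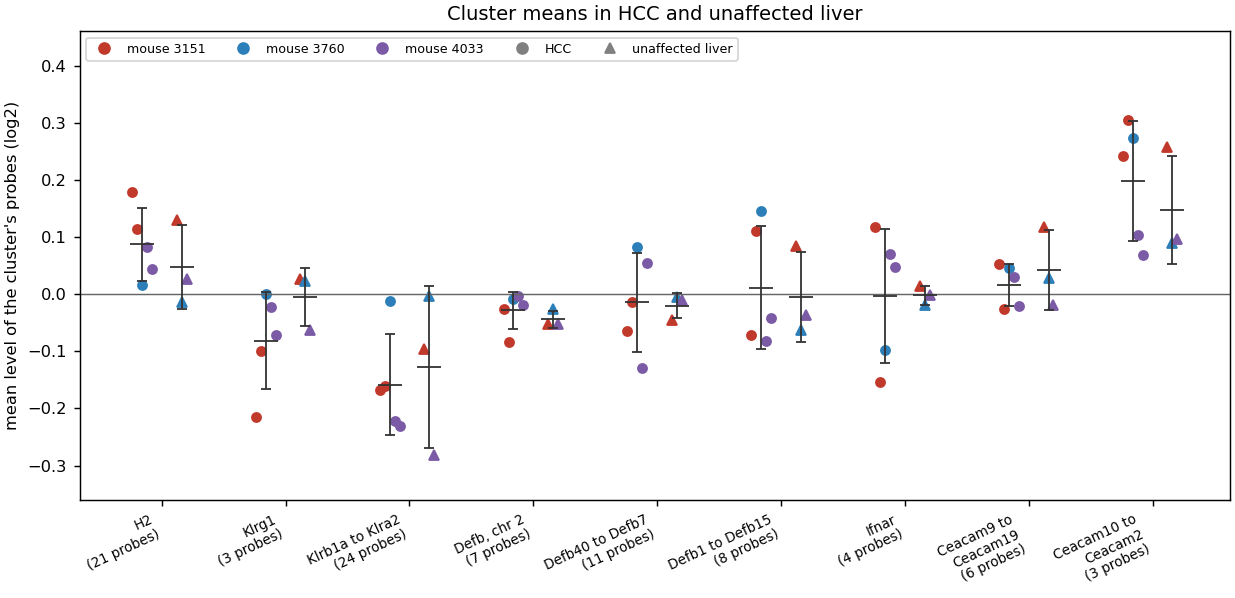
Mean level (log2) of the probes of each cluster of at least 3 probes in each HCC (circles) and unaffected liver (triangles), coloured by mouse, with the mean and SD over tissues as bars. In each cluster the ranges of HCC and liver overlap.

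Each tumour was then set against the liver of its own mouse, 1 tissue against 1, with no test. HCC 3 and HCC 5 shared slide and scan day with their livers. HCC 1 and HCC 2 were on another slide than liver 1, and HCC 4 on another slide and scan day than liver 3. The SD of the dye difference over all probes was 0.45 in HCC 1 and 0.50 in liver 1, against 0.35 in HCC 5 and 0.24 in liver 3. The part of slide, scan day and array noise in these differences was not tested. The share of members past 0.3 in either direction was 28.4% in HCC 1 (24.5% of all autosomal probes), 12.6% in HCC 2 (19.2%) and 18.9% in HCC 3 (18.4%). It was 15.8% in HCC 4 (14.8%) and 3.16% in HCC 5 (4.37%). The share of members was higher than that of all probes in 3 tumours and lower in HCC 2 and HCC 5. Past 0.3 one way in both dye orientations were 14 members in HCC 1 (14.7%, against 6.85% of all probes), 6 in HCC 2 (6.32%, against 6.13%), 7 in HCC 4 (7.37%, against 4.78%) and 1 in HCC 5 (1.05%, against 1.15%). HCC 3 has 1 orientation only.

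In HCC 1 the 14 were 5 H2, 4 beta-defensin, 2 Klr, 2 Ceacam and 1 Ifnar probe, gains and losses mixed. Both probes of Defb41, a beta-defensin gene on chromosome 1, exceeded liver 1 by 0.72 and 0.42 in HCC 1 and by 0.50 and 0.49 in HCC 2, in both orientations. The same probes differed from the own liver by -0.39 and -0.23 in HCC 3, 0.12 and -0.33 in HCC 4, and 0.15 and 0.03 in HCC 5. H2-M10.4 exceeded the own liver by 0.78 in HCC 1, 0.59 in HCC 2 and 0.47 in HCC 4, in both orientations, and stood at -0.13 and -0.16 in HCC 3 and HCC 5. One of 3 H2-M1 probes (chr17:36807652-36807701) was 0.88 and 0.84 above the own liver in HCC 1 and HCC 4. The forward and dye-swap arrays gave 0.31 and 1.47 in HCC 1, and 1.02 and 0.66 in HCC 4. This probe differed by 0.41 ± 0.19 (SE) between HCC and liver, and the 2 other H2-M1 probes by 0.09 and 0.05.

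Defb12 went both ways, 0.62 above the own liver in HCC 1, 0.42 in HCC 3 and -0.94 in HCC 4. Klrk1 was over 0.3 in 4 of 5 HCC at 1 of its probes, in both orientations in HCC 1 only, and Klrb1f in 3 of 5 at 1 of its probes. The second probe of each went the other way in one tumour in both orientations, Klrk1 in HCC 2 (-0.85 and -0.66) and Klrb1f in HCC 4 (-0.39 and -0.35). Of the called probes, Klri2 and Klra22 were lower than liver 1 in HCC 2, by -0.87 and -0.52, in both orientations. H2-T3 and H2-T10 differed from the own liver by -0.21 to 0.20 over the 5 HCC.

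**Figure D5:**
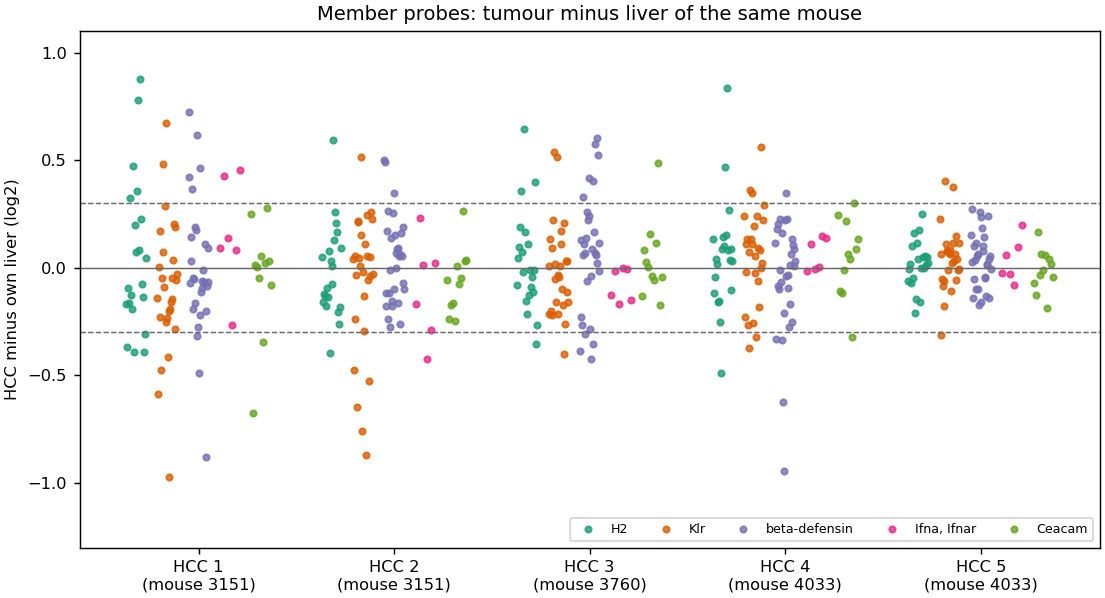
Difference in level (log2, HCC minus the unaffected liver of the same mouse) of each member probe, by HCC and coloured by family, with dashed lines at -0.3 and 0.3. Points spread on both sides of 0 in each family, most widely in HCC 1 and least in HCC 5.

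Genes that act with the members were counted from lists, to be read against the 1.50% of all autosomal probes called between mice. Single probes called in lists of this size are counts only. Of 17 antigen processing genes, 14 had a probe (22 probes), of which 0 were called between mice and 0 between HCC and liver. The lowest adjusted p of the limma F-test was 0.794. Of 20 natural killer receptor partners, 16 had a probe (29 probes), and 1 probe was called between mice, of Cd244. Of 17 interferon genes, Ifnar1 and Ifnar2 included, 14 had a probe (20 probes), and 1 was called between mice, of Mx1, an antiviral GTPase. Of 13 relatives of defensins and Ceacam, 6 had a probe (7 probes), and 2 were called between mice, of Psg16 and Psg25. None of these lists held a probe called between HCC and liver by limma, and 1, 1, 0 and 0 of their probes had an unadjusted p under 0.05. The median difference between HCC and liver was -0.05, -0.02, 0.01 and -0.04 in the 4 lists.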

How the data were processed

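Genomic DNA of 8 tissues was hybridised on 15 two-colour Agilent mouse CGH arrays. The authors' deposited scanner files come from Agilent Feature Extraction 9.1.3.1 and hold intensity values per spot (background-subtracted, detrended and dye-normalised processed signals, beside raw mean and background signals) and their log10 ratio of red over green. The deposited value table holds the same log10 ratio turned to tissue over reference. Probe positions are those of the files, and their genome build is not given in the sources used here. From the deposited processed signals, log2 of tissue over reference was computed, and outlier spots were left out. The median of all autosomal probes was subtracted on each array, and both dye orientations were averaged to 1 value per tissue. Each chromosome's median in the tissue was then subtracted. No loess or quantile normalisation was applied. The number of tissues limits the precision.

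Tests used limma 3.58.1 in R 4.3.3 (lmFit, eBayes, two-sided) with Benjamini-Hochberg adjustment over all 40726 autosomal probes, for HCC against liver and as an F-test over the 3 mice with pairwise contrasts, and were tested on simulated data. Tables and plots used Python 3.11.15, pandas 2.3.3, numpy 2.4.6 and matplotlib 3.10.9. Clusters are members of a family on a chromosome with gaps of at most 2 Mb. Named genes were the textbook members with a probe, up to 5 per family called between mice, the largest HCC difference per family, and up to 3 per family past 0.3 from the own liver in the most HCC. The members and lists were chosen with earlier results of these data known. Tumour and own liver are paired by the animal in the labels, and their deviations correlated at 0.17 to 0.40 over probes. Alternatives covered background correction, the deposited ratios, the chromosome level, dye orientation, dim and outlier spots, array weights, replicate block, slide, scan day, thresholds and leaving out each tissue.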

Additional observations from a re-analysis of the deposited data

Results flagged for a closer look

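Among 57 groups examined for a tissue that stands apart, 3 held one whose gap to its nearest neighbour was over 0.71 of the range of the 5 HCC, the 95% critical value of Dixon's test, a rate near that which chance gives. The chromosome 2 beta-defensin cluster (Defb20 to Defb36) stood at -0.0838 in HCC 2. The Klrc1 probe at chr6:129628881-129628928 stood at -0.77 in HCC 1, and the Ceacam10 probe at chr7:25566207-25566266 at -0.26 in HCC 1. Against liver 1 the Klrc1 probe differed by -0.36 on the forward and -1.58 on the dye-swap arrays.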

How the results depend on the processing

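H2-T3 kept its limma call between mice in every alternative run (3151 minus 3760, 1.30 to 1.53). Klri2 lost it with normexp (0.20) and on dye-swap arrays (1.65), and was not among the probes tested once dim ones were left out. Klra22 lost it with normexp (0.93). H2-T10 lost it on forward arrays (0.68), on dye-swap arrays (0.65), with scan day in the fit (0.69) and without HCC 3 (0.64). The 4 members called became 2 on dye-swap arrays, 6 with slide as a block, and 3 to 5 when leaving out each tissue. Over all probes 368 were called on forward arrays, 291 on dye-swap arrays and 393 with scan day in the fit, against 609. Other calls appeared at H2-M10.4 (with normexp, with slide as a block and without liver 1) and at Klra22 probes, 130239036 on forward arrays, with scan day in the fit and without HCC 4, and 130261207 with slide as a block. HCC against liver gave 0 calls in every alternative, the replicate block by mouse included, where the pairing by animal gave 0. HCC 3 has no dye-swap array, so the fit on dye-swap arrays held 1 tissue of mouse 3760 and fewer tissues in all. The fits without HCC 3 or without liver 2 also held 1 tissue of that mouse. The cause of these changes was not tested.

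Probes past 0.3 in every tissue numbered 5 over and 2 under on dye-swap arrays in mouse 3151, and 3 to 8 over when leaving out each tissue, with 8 without liver 1. In mouse 3760 they were 1 over and 3 under on dye-swap arrays, 1 over and 1 under at a threshold of 0.2, and 1 to 7 over and 1 to 4 under when leaving out each tissue, with 7 and 4 without liver 2. In mouse 4033 1 was over with normexp, on forward arrays, without dim probes and at a threshold of 0.5. There, 2 were under with normexp, 3 on dye-swap arrays and 2 at a threshold of 0.5. Leaving out a tissue can only keep or raise such a count, since fewer tissues have to pass. The counts when leaving out each tissue therefore do not measure how firm the result is. In mouse 3760 they rest on 1 tissue, as do its counts on dye-swap arrays.

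With no chromosome level taken off, HCC minus liver was -0.14 for Ceacam10 to Ceacam2, -0.21 for Ceacam9 to Ceacam19, 0.0737 for the chromosome 2 defensins, 0.13 for Defb1 to Defb15, 0.11 for Defb40 to Defb7, -0.12 for H2, 0.20 for Ifnar and 0.0411 for Klrg1. Ceacam9 to Ceacam19 was -0.10 on forward arrays and -0.10 within scan day 2, and Defb1 to Defb15 -0.10 within scan day 2. The chromosome 2 defensins were 0.0858 on forward arrays, -0.0621 on dye-swap arrays and -0.0356 as a median, Ifnar 0.12 on dye-swap arrays and Klrg1 0.00802 as a median. Against the own liver, the chromosome 2 defensins were 0.0916 on forward arrays, -0.0532 on dye-swap arrays and -0.0339 as a median, Ceacam10 to Ceacam2 -0.0596 as a median, and Defb40 to Defb7 -0.10, H2 0.0777 and Ifnar 0.14 on dye-swap arrays. H2 was -0.0013 on forward arrays. The other cluster values moved by less than 1 SD.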
